A study of Glycine max with 6 samples.

Results

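Genes of cysteine synthesis were followed in the first trifoliolate leaf of soybean after a spray of lipo-chitooligosaccharide (LCO, or Nod factor). Members were all soybean probe sets of the array whose gene symbol or synonym began with OAS-TL, SERAT, SAT and a digit, APR and a digit, or ATPS, with or without the prefix Gm. This gave 19 of 37593 soybean probe sets, for 9 of the 6029 soybean genes named in the platform table: OAS-TL1, OAS-TL2, OAS-TL3, OAS-TL4, OAS-TL6, OAS-TL7, LOC547631, SAT1 and LOC100790824. The names SERAT, APR and ATPS matched 0 of these 19, so the steps from sulfate to sulfide that APR and ATPS enzymes carry out are not described here.

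Plants take up sulfate, activate it with ATP sulfurylase (ATPS), reduce it with APS reductase (APR) and sulfite reductase (SIR) to sulfide, and fix the sulfide into cysteine. Serine acetyltransferase (SAT or SERAT) makes O-acetylserine, and O-acetylserine(thiol)lyase (OAS-TL, also called cysteine synthase), a pyridoxal phosphate enzyme, replaces the acetyl group of O-acetylserine with sulfide. The acetyltransferase and the lyase bind each other in the cysteine synthase complex, in plants including Arabidopsis, and isoforms occur in the cytosol, plastids and mitochondria. Cysteine then feeds glutathione (in soybean mainly homoglutathione), methionine and protein.

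The label of cysteine synthesis was checked against the tables. They pair LOC547631 with the synonym OAS-TL1, which is also the symbol of another member, so that name stands for 2 genes. LOC100790824 carries the synonyms SAT1 and nodulin. In soybean the name SAT1 was also given to a nodule gene of symbiotic ammonium transport, which is not an acetyltransferase, so this member fits the rule by its letters and its place in cysteine synthesis is not given by the tables. SAT1 carries the synonym GIP3 and no description. The enzyme activity of every member is therefore read from its symbol.

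Plants of cultivar OAC Bayfield were at the V1 stage. In the LCO group the leaf received 2 mL of water with 1e-07 M of NodBj-V (C18:1, MeFuc), the Nod factor of the Bradyrhizobium japonicum strain named 532C, together with 0.02% Tween 20, and in the water group 2 mL of water with the same detergent. Leaves were taken after 48 h, and each group had 3 arrays. Total RNA of whole leaf was labelled with biotin and hybridised to 1-colour Affymetrix soybean arrays, so fewer cells of a type and less RNA per cell cannot be told apart. Values are log2 levels of 1 probe set on 1 array, and levels of different probe sets are not compared as amounts of RNA. Where a gene has several probe sets they are called a, b, c and d from the brightest down. Array medians of the tested soybean probe sets ran from 6.84 to 6.89. Water 1 and water 2 were the closest arrays: differences between them had an SD of 0.198, and every other pair of arrays one of 0.341 to 0.695.

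The labelled tissue was checked by markers. The chlorophyll-binding protein gene CAB3 lay between 14.37 and 14.40 on all arrays in its brightest probe set. That is close to the highest value in the data, so a rise there might not show. Of 18 leaf mesophyll probe sets, 15 passed the filter, with 9 higher and 6 lower estimates and none called. The groups did not overlap in 3 of them, all higher, with differences of 0.265 for RCA14 a and 0.22 and 0.21 for LOC547819 a and b. The lowest estimate, -0.37 for RCA11 a, came with overlapping groups. The summed linear value of the leaf mesophyll list was 110796 to 115456 in water and 116646 to 121229 with LCO. Of 20 seed storage probe sets, 16 lay on every array under 3.31, the limit for testing explained below, including all of the glycinins and conglycinins. The other 4 were tested without a call, with differences of -1.16 for KTI-2, -1.38 and -1.29 for KTI-3, and 2.09 for SBPRP. SBPRP was taken in by the letters SBP, and its symbol does not show that it is a seed storage gene. It read 8.31, 8.01 and 10.82 in water and 10.43, 11.07 and 11.91 with LCO, the brightest of this list on the LCO arrays. The summed linear value of this list, SBPRP included, was 1364 to 2855 in water and 2129 to 4239 with LCO. Among 23 probe sets in the nodule list, 12 lay under 3.31 on every array and 10 were tested, with 6 higher and 4 lower estimates. Means over the 6 arrays were 9.15 for UR2 a, 8.34 for NOD33 and 8.09 for LBD23, which was taken in by the letters LB. The 2 that were called are both of the sucrose synthase SS and both higher, and 1.67% of all tested probe sets were called higher. Sieve element genes had a summed linear value of 236 to 256 in water and 341 to 525 with LCO, with none of 7 tested past the threshold. Of these 7, estimates were higher in 6 and lower in 1, with a median of 0.74. The groups did not overlap in 5 of them, all higher, while 15.3% of all tested probe sets did not overlap and were higher. As a measure of RNA quality, the 3′ end of the array's P450 control read higher than its 5′ end by 0.98 ± 0.03 in water and by 2.27 ± 0.60 with LCO (log2, SD, n = 3), with 2.13, 1.74 and 2.92 on LCO 1, 2 and 3. For the control GlutTrans this excess was 0.39 ± 0.35 and 0.60 ± 0.27. The part of these differences between the groups in the results below was not tested.

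Of the 19 members, 16 were tested, because their mean lay above 3.31, a limit that 90% of the array's probe sets for an oomycete and a nematode stay under. They belong to 7 genes, 6 of which have several tested probe sets. Probe sets paired with the same gene are not replicates, and whether they read the same transcript was not analysed. The first question is which of the 16 differ between LCO and water. A single probe set, of OAS-TL6, rose past the threshold (limma adjusted p under 0.05), none fell and 15 did not pass. Over all 29286 tested soybean probe sets, 1.67% were called higher and 1.88% lower, so 1 call in 16 is too few to set against that background. At an unadjusted p under 0.05, 3 members were higher and 7 lower, while 25.8% of all tested probe sets had such a p.

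The 2 groups of arrays did not overlap in 13 of the 16 members, 3 of them higher and 10 lower with LCO. Among all tested probe sets 15.3% did not overlap and were higher, and 16.3% did not overlap and were lower. The median difference of the 16 members was -0.23 on the log2 scale, against -0.01 over all tested probe sets, and estimates were lower with LCO in 12 of the 16 against 51.0% of all. The tested members varied little between arrays of a group, with a median within-group SD of 0.114 against 0.176 over all tested probe sets. They were also brighter, with a median level of 10.0 against 6.85. The part of that smaller spread and that higher level in the number of members without overlap was not tested.

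**Figure D1:**
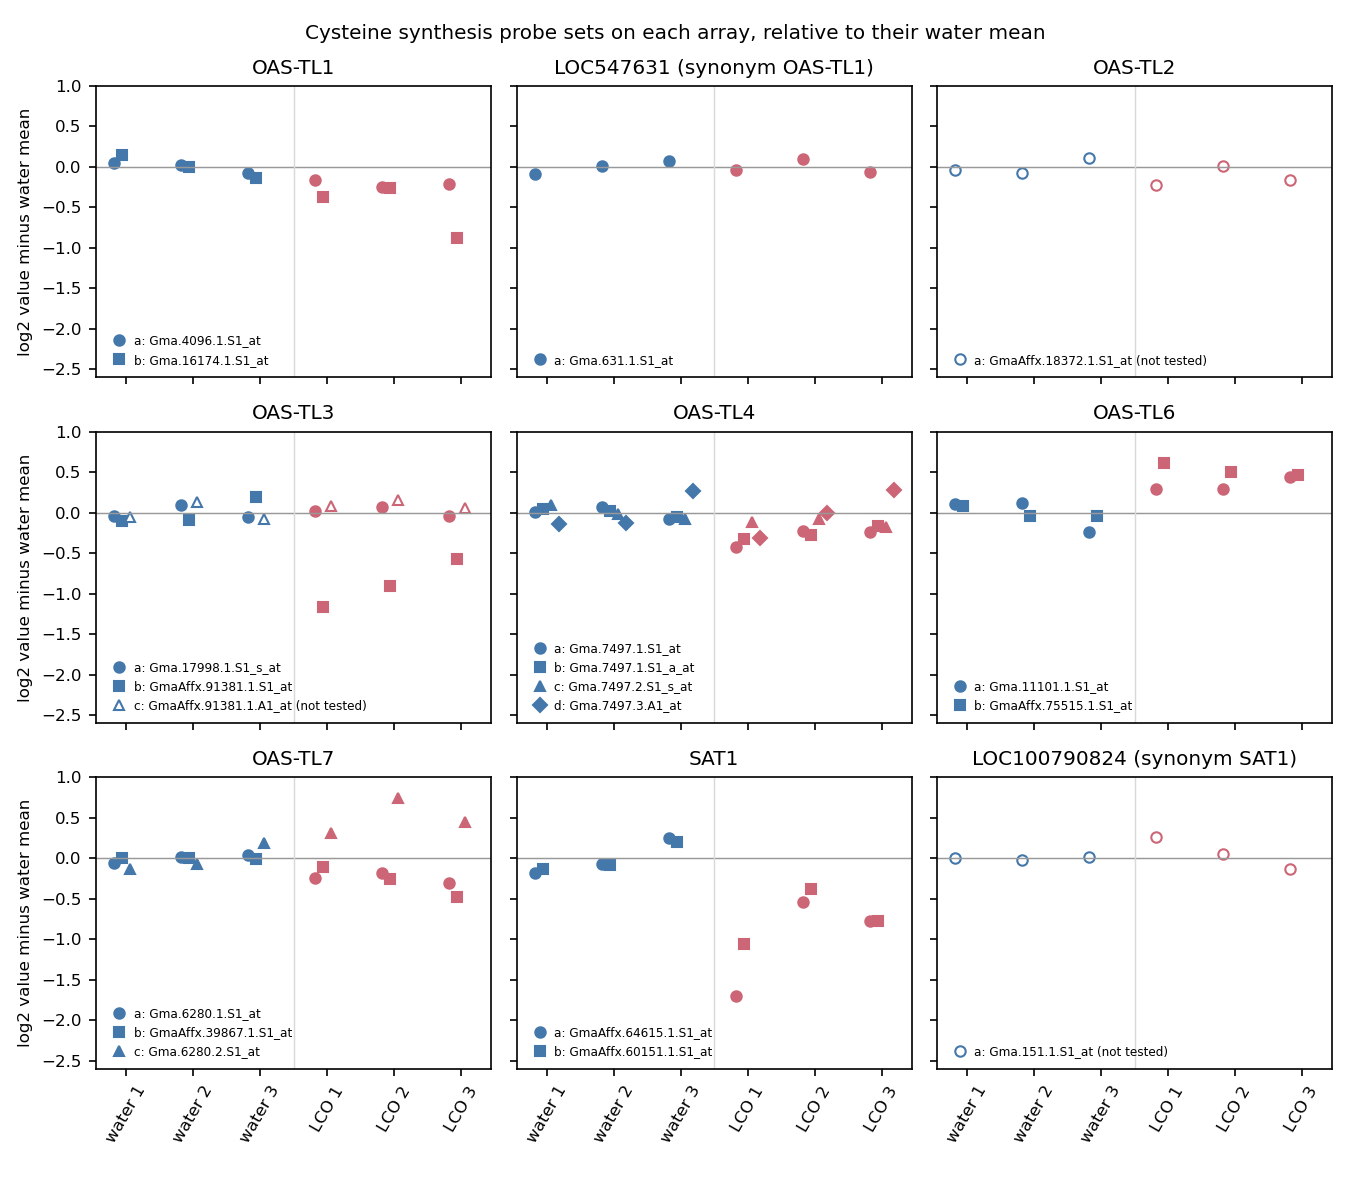
Log2 value of each of the 19 member probe sets on the 3 water arrays (blue) and the 3 LCO arrays (red), minus the mean of that probe set in water, with 1 panel per gene and 1 symbol per probe set, whose identifier stands beside its letter. Filled symbols were tested and open symbols were not. Both OAS-TL6 probe sets lie above their water arrays on every LCO array, both SAT1 probe sets lie below, and OAS-TL7 holds probe sets that go opposite ways.

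OAS-TL6 is a member of the lyase family, which carries out the last step of cysteine synthesis. Its dimmer probe set, OAS-TL6 b, read 6.86, 6.75 and 6.75 on the water arrays and 7.39, 7.29 and 7.26 on the LCO arrays. The lowest LCO array stood 0.39 above the highest water array. The rise was 0.53 (SE 0.09, limma adjusted p = 0.0400), which is 1.44-fold with a 95% interval from 1.23 to 1.68. Its within-group SD of 0.070 was small, and only 7.86% of all tested probe sets had a smaller one. In size the rise was among the smaller ones, since 1000 of the 1040 called probe sets had a larger change in either direction. By p it stood at rank 767 of the 29286.

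The brighter probe set, OAS-TL6 a, read 8.66, 8.67 and 8.31 in water and 8.84, 8.83 and 8.99 with LCO. The groups did not overlap here either, although water 3 stood apart from the other water arrays by more than the gap of 0.16 between the groups. Its difference was 0.34 (SE 0.13, limma adjusted p = 0.168), or 1.27-fold with an interval from 1.02 to 1.57, and did not pass. It was 0.22 without water 3, and also 0.22 with array weights. With the mean of both probe sets as 1 value for the gene, the difference was 0.43 (SE 0.10, limma adjusted p = 0.0592 over 5349 genes). The call of OAS-TL6 was lost whichever single array was left out. The adjusted p then ran from 0.0523 without water 3 to 0.177 without water 2, while the estimate stayed between 0.49 and 0.57. Averaging water 1 and 2 into 1 sample gave an adjusted p of 0.151 by limma.

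Both probe sets of SAT1 had lower estimates with LCO, and the brighter one had the largest difference of the 16 tested members. If the symbol is read as serine acetyltransferase, it stands one step before the lyases, making their substrate. SAT1 a read 8.83, 8.95 and 9.27 in water and 7.31, 8.47 and 8.24 with LCO. SAT1 b read 5.86, 5.90 and 6.19 in water and 4.92, 5.60 and 5.21 with LCO. In both probe sets the groups did not overlap, water 3 was the highest array and LCO 1 the lowest, and LCO 2 came closest to the water arrays.

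The difference of SAT1 was -1.01 (SE 0.31, limma adjusted p = 0.114) in the brighter probe set, a level 0.497-fold that in water with a 95% interval from 0.298 to 0.829. In the dimmer one it was -0.74 (SE 0.19, limma adjusted p = 0.0864), or 0.599-fold with an interval from 0.435 to 0.825. Neither passed, and the mean of both did not either, at -0.87 (SE 0.25, limma adjusted p = 0.0983). The spread among the LCO arrays was wide, with SDs of 0.62 and 0.34 against 0.23 and 0.18 in water. Without LCO 1, the lowest array, the difference of the brighter probe set was -0.66. With array weights it was -0.60, and that of the dimmer one -0.43.

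OAS-TL3 is another lyase of the family, and its probe sets did not give the same picture. The dim probe set OAS-TL3 b read 4.11, 4.13 and 4.41 in water and 3.04, 3.31 and 3.65 with LCO. LCO 1 lay under the limit of 3.31 and LCO 2 just above it, so the level with LCO was close to that of probe sets for other organisms. The difference was -0.88 (SE 0.18, limma adjusted p = 0.0523), with a 95% interval from -1.30 to -0.46 on the log2 scale, just short of the threshold. It passed with each array centred on its median (adjusted p = 0.0441), with array weights (0.0053) and with the replicate number as a block (0.0198), all by limma, and its value lay between -0.91 and -0.80 in these 3 fits. It did not pass in the remaining fits, with adjusted p by limma from 0.0581 to 0.170 over arrays left out, 0.164 with water 1 and 2 averaged, 0.0536 with no filter, 0.0515 when quantile normalized again and 0.0546 with trend and robust. As 1 mean with the bright probe set the gene differed by -0.43 (limma adjusted p = 0.0719).

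The bright probe set, OAS-TL3 a, read 10.53, 10.66 and 10.51 in water and 10.58, 10.64 and 10.53 with LCO. The groups overlapped, and the difference of 0.02 had a 95% interval from -0.21 to 0.24. That interval does not reach the value of the dim probe set. The identifier of OAS-TL3 a ends in _s_at, which marks probes that match several transcripts of the array's sequence collection. That of OAS-TL4 c, described below, ends in the same way. The dimmest, OAS-TL3 c, was not tested, with values from 3.08 to 3.32.

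**Figure D2:**
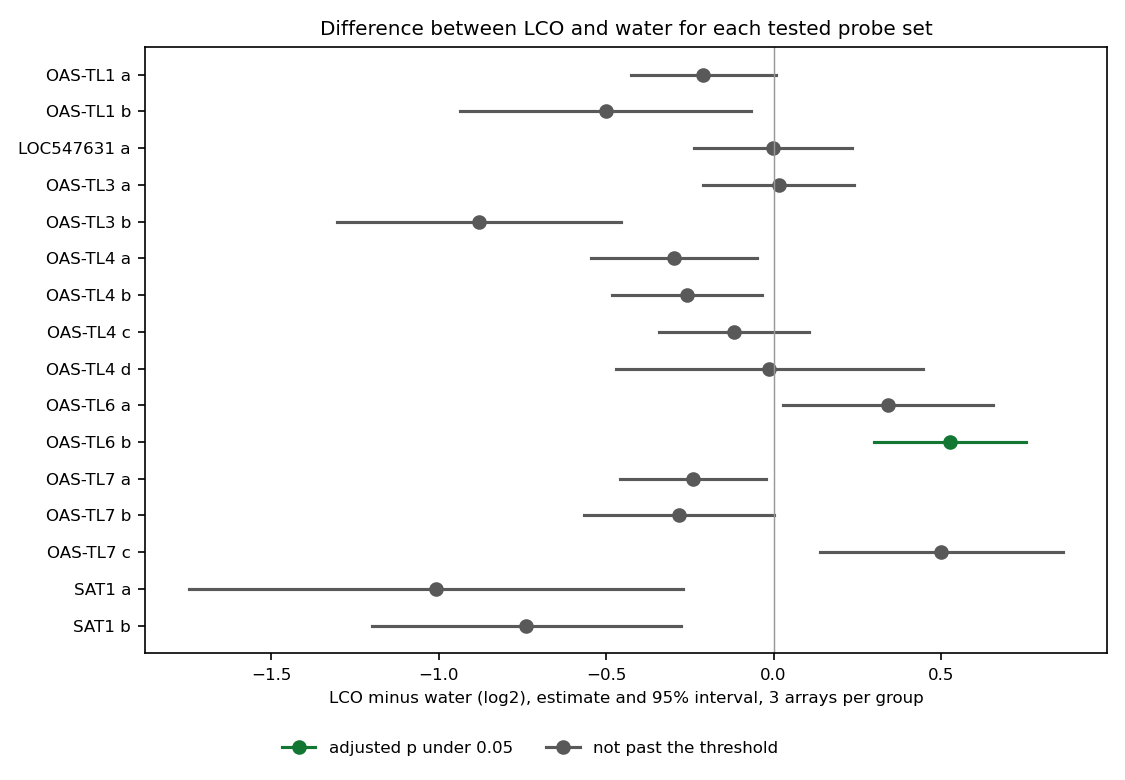
Difference between LCO and water (log2) for the 16 tested probe sets, as the limma estimate (point) with its 95% interval (line), from 3 arrays per group. Only OAS-TL6 b, in green, passed the threshold, and the lowest estimates are those of SAT1 a at -1.01, OAS-TL3 b at -0.88 and SAT1 b at -0.74.

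OAS-TL1, also a lyase by name, had lower estimates with LCO in both of its probe sets, without a call. OAS-TL1 b read 11.41, 11.27 and 11.13 in water and 10.90, 11.01 and 10.40 with LCO. LCO 3 stood lowest, and it is also the array with the largest excess of the P450 3′ end, at 2.92. In OAS-TL1 a the lowest LCO array was LCO 2, where that excess was 1.74. The part of RNA quality in these values was not tested. The difference of OAS-TL1 b was -0.50 (SE 0.18, limma adjusted p = 0.153), and -0.31 without LCO 3. OAS-TL1 a ran from 11.73 to 11.85 in water and from 11.55 to 11.64 with LCO, a difference of -0.21 (SE 0.09, limma adjusted p = 0.203). The groups did not overlap in either probe set.

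LOC547631, the gene that lists OAS-TL1 as a synonym, has 1 probe set. It read 9.68, 9.79 and 9.84 in water and 9.73, 9.86 and 9.71 with LCO. The groups overlapped throughout. The difference was 0.00 on the log2 scale with a 95% interval from -0.24 to 0.23, or from 0.849-fold to 1.18-fold.

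OAS-TL4 is represented by 4 probe sets. OAS-TL4 a read 11.82, 11.89 and 11.73 in water and 11.39, 11.58 and 11.58 with LCO, a difference of -0.30 (SE 0.10, limma adjusted p = 0.143). OAS-TL4 b, designed from the same source sequence by its identifier, ran from 11.58 to 11.67 in water and from 11.30 to 11.46 with LCO, a difference of -0.26 (SE 0.09, limma adjusted p = 0.152). In both the groups did not overlap, and LCO 1 was the lowest array.

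The remaining OAS-TL4 probe sets differed less. OAS-TL4 c ran from 10.80 to 10.96 in water and from 10.70 to 10.80 with LCO, a difference of -0.12 with an interval from -0.34 to 0.11, and the groups were separated by only 0.0019. Without water 1 it was -0.074. In OAS-TL4 d water 3 and LCO 3 were the high arrays of their groups, at 10.17 and 10.18, and the groups overlapped. Its difference was -0.01 with an interval from -0.47 to 0.45. Over the 4 probe sets as 1 mean, OAS-TL4 differed by -0.17 (SE 0.09, limma adjusted p = 0.279).

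OAS-TL7 had probe sets with estimates of opposite sign. OAS-TL7 c read 8.75, 8.81 and 9.07 in water and 9.18, 9.62 and 9.32 with LCO, a difference of 0.50 (SE 0.15, limma adjusted p = 0.113). OAS-TL7 a read 10.78, 10.85 and 10.89 in water and 10.59, 10.66 and 10.54 with LCO, a difference of -0.24 (SE 0.09, limma adjusted p = 0.164). OAS-TL7 b ran from 10.27 to 10.28 in water and from 9.80 to 10.16 with LCO, a difference of -0.28 (SE 0.12, limma adjusted p = 0.194), which was -0.18 without LCO 3. The groups did not overlap in any of the 3, none passed, and the difference between the probe sets themselves was not tested. Their mean hid this, with a difference of -0.01 (SE 0.10) for the gene.

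OAS-TL2 and LOC100790824 were not tested. The probe set of OAS-TL2 ran from 3.01 to 3.20 in water and from 2.87 to 3.10 with LCO. That of LOC100790824, the gene with the synonym nodulin, ran from 2.64 to 2.68 in water and from 2.52 to 2.92 with LCO. Both lay under 3.31 on all 6 arrays, so no signal above the testing limit was detectable in these leaves, and no fold is given.

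Water 3 lay at an end of its group in every one of the 16 tested probe sets, as the highest water array in 7 and the lowest in 9. Among the LCO arrays, array 2 was the highest in 9, and arrays 1 and 3 were each the lowest in 7.

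**Figure D3:**
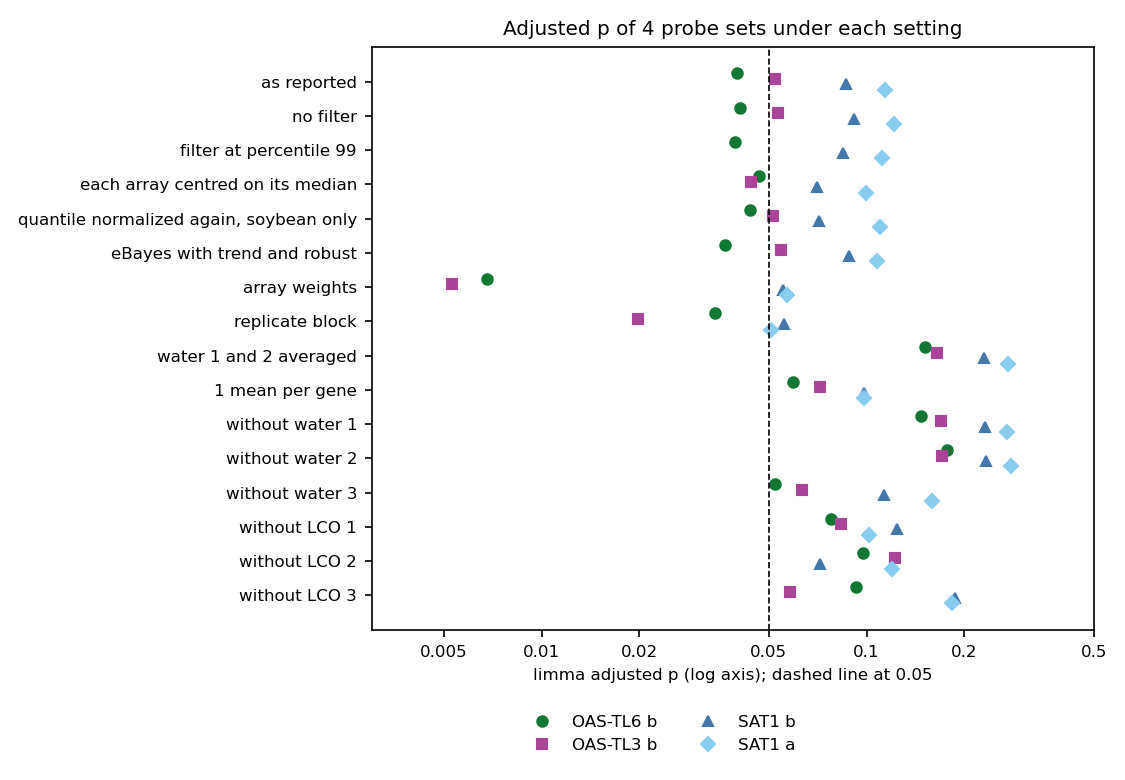
Adjusted p from limma (log axis) for the called probe set OAS-TL6 b, for OAS-TL3 b and for both SAT1 probe sets, in the fit as reported and in the alternatives listed on the vertical axis. The dashed line is the threshold of 0.05. The OAS-TL6 points lie left of it in the settings that keep all arrays and probe sets separate, and right of it for every array left out, for water 1 and 2 averaged and for 1 mean per gene. OAS-TL3 b has no point at the filter at percentile 99, which removed it.

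The next question is how other genes of sulfur and serine metabolism behaved on the same arrays. Lists by symbol gave 18 probe sets, of which 16 were tested and none passed. At an unadjusted p under 0.05 there were 3 of the 16, while 25.8% of all tested probe sets had such a p. Estimates were lower with LCO in 12 and higher in 4, against 51.0% lower among all tested probe sets. The median was -0.10, against -0.01 over all. The letters SAM and a digit also took in SAM22, a synonym of the pathogenesis-related PR-10 gene, which is not of methionine metabolism. Without it 15 were tested, with 11 lower estimates and a median of -0.09.

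Serine is the carbon skeleton of cysteine. SHMT, a serine hydroxymethyltransferase, which interconverts serine and glycine, had the largest upward estimate among these genes. It read 9.93, 10.00 and 10.34 in water and 10.37, 10.81 and 10.96 with LCO, groups that did not overlap by a gap of 0.03. The difference was 0.62 (SE 0.19, limma adjusted p = 0.114), or 1.54-fold with a 95% interval from 1.12 to 2.11. LOC100499634, listed with the SHMT synonyms GmSHMT08m and GmSHMT18m, ran from 13.15 to 13.28 in water and from 13.10 to 13.15 with LCO, a difference of -0.09 (limma adjusted p = 0.573).

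Cystathionine gamma-synthase takes cysteine into methionine. The 4 tested probe sets of CGS2 all had lower estimates. In CGS2 c values ran from 10.96 to 11.06 in water and from 10.52 to 10.85 with LCO, a difference of -0.31 (SE 0.12, limma adjusted p = 0.165). By limma, CGS2 b differed by -0.27 (adjusted p = 0.186), CGS2 a by -0.17 (0.349) and CGS2 d by -0.08 (0.769). The groups overlapped in CGS2 d and did not in CGS2 a, b and c. Among all tested probe sets, 16.3% did not overlap and were lower. The identifiers of CGS2 b and c end in _s_at. For MMT2, a methionine methyltransferase by name, the difference was -0.01 with an interval from -0.22 to 0.21.

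Sulfite reductase, SIR, supplies the sulfide that the lyases use. Its 3 probe sets differed by -0.27, 0.11 and 0.05, and the groups overlapped in all 3. Glutathione reductase, GR, which keeps glutathione reduced, differed by -0.13 and -0.11 (limma adjusted p = 0.409 and 0.506). PCS1, a phytochelatin synthase, which builds metal-binding peptides from glutathione, or from homoglutathione in soybean, differed by -0.12 and 0.19 in its 2 probe sets, with overlapping groups in both.

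**Figure D4:**
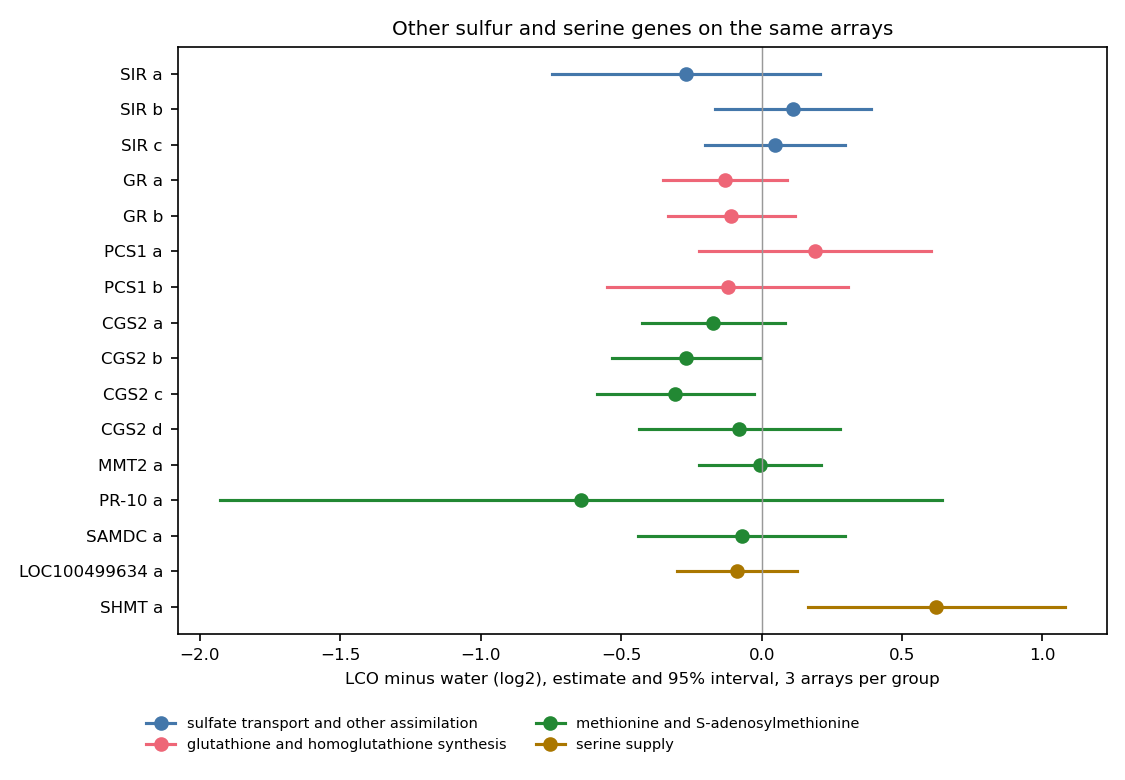
Difference between LCO and water (log2) for 16 tested probe sets of other sulfur and serine genes, as the limma estimate (point) with its 95% interval (line), from 3 arrays per group, coloured by list. No probe set passed the threshold, SHMT has the highest estimate at 0.62, and the PR-10 probe set was taken in by its synonym SAM22.

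Genes whose values followed those of OAS-TL6 most closely over the 6 arrays were ranked by Pearson correlation with its brighter probe set. The ranking held 810 genes with a symbol other than a LOC number, each by its best-correlated probe set out of 1299 in all. The first 5 were B13-1-9 (r = 0.980), ERF6 (0.973), an ethylene response factor by name, IDH1 (0.956), an isocitrate dehydrogenase by name, SCOF-1 (0.946), a cold-inducible zinc finger gene, and GSTIR (0.941). With 6 arrays in 2 groups, such values rest on the step between the groups and on water 3. That array was the lowest in all 5 genes, as in OAS-TL6 a. In OAS-TL6 b, water 2 and water 3 both read 6.75. The sizes were far apart. B13-1-9 differed by 3.29 (limma adjusted p = 0.0638) and SCOF-1 by 1.35 (0.127), while IDH1 differed by 0.21 (0.224), all by limma. None of the 5 passed the threshold.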

How the data were processed

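The deposited values are log2 levels, 1 per probe set and array, which the authors computed with RMA (per the submitters' processing notes; its version is not given in the sources used here). The log2 scale was read from the range, 1.45 to 14.6. The members and lists were chosen with earlier results of these data known, and the fit repeats an earlier one.

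Of 37593 soybean probe sets, 8677 have 1 gene in the platform annotation, 370 several and 28546 none in the table used. Symbols were updated through RefSeq genes of Glycine_max_v4.0, where 8652 matched. No probe set paired with several genes was named. The array's build is not stated, so coordinates were left out, and no sequences were used. Whether probes also match paralogues was not analysed here.

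Probe sets with a mean above 3.31, percentile 90 of the 23394 probe sets of Phytophthora sojae and Heterodera glycines, were tested (29286). LCO and water were compared with limma 3.58.1 in R 4.3.3 (lmFit, eBayes, no term but group), adjusted by Benjamini-Hochberg over all tested probe sets. Intervals are limma's at 95%, not adjusted. The code of the fit was run on simulated data with independent noise on each array. Such noise differs from arrays as alike as water 1 and 2, so that run says nothing about the calls made here. Replicates are not stated to be separate plants, so p-values measure only a spread between samples that may be technical. The number of arrays limits the precision. All members were described. Per list of other genes, called members and the 2 tested members with the smallest p were to be named, and the others named here were chosen after their values were seen. Alternatives covered filter, normalization, prior, array weights, replicate block, threshold, 1 mean per gene and arrays left out. Figures used matplotlib 3.10.9 in Python 3.11.15.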

Additional observations from a re-analysis of the deposited data

How the results depend on the processing

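The number of called members was 1 in the fit as reported, 2 with each array centred on its median, 2 with the replicate block, 7 with array weights, 3 at an adjusted p under 0.1, and 0 with water 1 and 2 averaged or with any 1 array left out (0 to 0). The 7 were of OAS-TL1, OAS-TL3, OAS-TL6, 2 each of OAS-TL4 and OAS-TL7. Over all soybean probe sets, 1040 calls became 9544 with array weights, 3010 with the replicate block, 3030 at an adjusted p under 0.1 and 203 with water 1 and 2 averaged, and 193 to 2207 with an array left out. The replicate numbers were not taken as pairs, because the series text describes a completely randomised design. Same-numbered arrays had correlations of their deviations of 0.452, -0.036 and 0.527. Water 2 with LCO 1 had 0.448, and the other differently numbered arrays ran from -0.542 to 0.108. These values do not settle whether the numbers mark pairs. Of 239 comparisons of single members with an alternative, 209 kept direction and side of the threshold. Signs turned in 3 probe sets with values near 0 and in OAS-TL7 c. LOC547631 went to 0.086 with array weights and ran from -0.049 to 0.035 over arrays left out. OAS-TL3 a was -0.0094 after centring and ran from -0.014 to 0.063 over arrays left out. As 1 mean per gene it became -0.43, which averages it with OAS-TL3 b at -0.88. OAS-TL4 d was 0.12 with array weights and ran from -0.16 to 0.14. OAS-TL7 c became -0.0076 as 1 mean per gene, which averages it with probe sets of the opposite sign. The causes of the other changes were not tested.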
